A study of Homo sapiens with 27 samples.

Results

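The genes described here are 34 of the 20453 genes in both count tables. They comprise 15 targets and components of the stress pathway that runs through the transcription factor ATF4, and 19 genes of cytosolic aminoacyl-tRNA synthetases. The members were listed by name, with earlier results of these data known, and each symbol was matched to its Ensembl identifier in the tables. Of the 15 ATF4 genes, 9 encode transcription factors, feedback regulators and other stress targets (ATF4, DDIT3, ATF5, TRIB3, CHAC1, SESN2, DDIT4, PPP1R15A and VLDLR) and 6 encode enzymes of serine, one-carbon and asparagine synthesis (ASNS, PSAT1, PHGDH, PSPH, SHMT2 and MTHFD2). All 34 passed the filter on low counts in both assays.

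In the integrated stress response, kinases that sense amino acid shortage, endoplasmic reticulum stress, viral RNA or haem deficiency phosphorylate the initiation factor eIF2. General initiation then falls, while ribosomes that have passed short upstream reading frames reach the ATF4 coding sequence more often. ATF4 pairs with C/EBP proteins on a composite promoter element and raises genes of amino acid synthesis, amino acid uptake and tRNA charging, and PPP1R15A closes the loop by directing a phosphatase to eIF2. In macrophages the serine and one-carbon enzymes of this set can supply serine and one-carbon units during activation.

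THP-1, a human monocytic leukaemia line, was grown in medium with dialysed serum, differentiated over 24 h with PMA (a phorbol ester) at 10 ng/ml, and treated for 3 h. The groups were vehicle (ethanol/PBS), 100 ng/ml lipopolysaccharide (LPS, a bacterial cell wall component that macrophages sense), and LPS together with 1 µM dexamethasone, a synthetic glucocorticoid (LPS+Dex). Dexamethasone was not given alone, so its effect is known only on top of LPS. Poly(A) RNA-seq was made with 4 libraries per treatment (12 in all) and ribosome profiling, which sequences the mRNA fragments protected by ribosomes, with 5 (15 in all), the RNA being taken from the profiled cells. The labels do not say that replicates were separate cultures, so p-values measure the spread between these libraries.

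RNA libraries held 18966683 to 30665116 counts and footprint libraries 11477048 to 26063343. No pair of libraries agreed within sampling noise. The 3 footprint libraries numbered 4 stood apart, with a root mean square deviation from the treatment mean of 0.69, 0.76 and 0.8 on the log2 scale, against 0.284 to 0.412 in the other 12. The 8 monocyte and macrophage markers CD14, CD68, LYZ, ITGAM, CSF1R, SPI1, CD36 and FCGR1A were detected in every group. Their summed RNA level was 3417.5 to 4011 CPM (counts scaled to a common library size by TMM) with vehicle, 2460.1 to 2704 with LPS and 2499.7 to 2661 with LPS+Dex. Their summed footprints were at 9532 CPM with vehicle, 8973 with LPS and 10022 with LPS+Dex in libraries 4, and between 3062 and 4665 in the other 12. Of 10 markers of other cell types, EPCAM and HBB were at 0 in all RNA libraries and CD3E, MS4A1 and KRT8 near 0. Their summed RNA level, mostly PECAM1, which monocytes also express, was 256.5 to 428.2 CPM with vehicle, 130.7 to 178.7 with LPS and 161.5 to 201.1 with LPS+Dex. COL1A1, a collagen of fibroblasts, was at 5.90 ± 1.25 CPM (SD, n = 4) in RNA with vehicle, 8.54 ± 1.40 with LPS and 24.1 ± 1.99 with LPS+Dex, and all LPS+Dex libraries lay above all LPS libraries. The summed footprint level of the 10 was 1093, 860.2 and 999.1 CPM in libraries 4 and 405.3 to 771.9 in the others. The part of cell composition in the results was not tested, and in bulk libraries fewer cells of a type cannot be told apart from less RNA per cell.

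The promoters of the members are shown first because ATF4 is known to act through a composite element in the promoters of its targets. RefSeq windows of GRCh38.p14, from 250 bases before to 50 after a start site, were found for 29 of the 34 members (41 windows), and not for PSPH, SHMT2, LARS1, VARS1 and YARS1. The C/EBP-ATF response element was searched as TGATGNAA on both strands. It occurred in 9 of the 41 member windows (22%), each in a different gene, against 3.62% of all 35116 windows. Of these 9 genes, 7 encode synthetases, and the match covers the first transcribed base in CARS1 and MARS1. The matches are printed in capitals with flanking sequence from the same window, 5′ to 3′ on the strand of the gene.
CHAC1: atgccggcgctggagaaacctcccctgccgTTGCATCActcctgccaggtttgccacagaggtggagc
ASNS: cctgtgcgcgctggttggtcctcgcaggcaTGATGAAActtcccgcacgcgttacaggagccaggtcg
AARS1: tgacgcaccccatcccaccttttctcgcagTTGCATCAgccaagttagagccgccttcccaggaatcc
CARS1: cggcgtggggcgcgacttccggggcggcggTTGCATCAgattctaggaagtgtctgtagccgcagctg
GARS1: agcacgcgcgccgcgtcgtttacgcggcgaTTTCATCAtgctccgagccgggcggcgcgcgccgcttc
IARS1: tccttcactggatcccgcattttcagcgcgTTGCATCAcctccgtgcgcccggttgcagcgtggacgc
MARS1: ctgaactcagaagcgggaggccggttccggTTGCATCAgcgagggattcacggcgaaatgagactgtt
NARS1: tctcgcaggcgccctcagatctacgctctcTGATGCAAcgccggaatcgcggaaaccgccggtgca
TARS1: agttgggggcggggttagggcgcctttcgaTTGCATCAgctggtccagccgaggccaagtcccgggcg
The stretches lie at chr15:40953232-40953299, chr7:97872439-97872506, chr16:70289656-70289723, chr11:3057388-3057455, chr7:30594815-30594882, chr9:92293673-92293740, chr12:57488034-57488101, chr18:57621787-57621852 and chr5:33440937-33441004, in the printed order. Counted from the first transcribed base as 0, the first base of the match was at -209 in CHAC1, -68 in ASNS, -187 in AARS1, -2 in CARS1, -33 in GARS1, -13 in IARS1, -4 in MARS1, 14 in NARS1 and 2 in TARS1. Read on the strand of the gene, 6 of the 9 matches are the same 8 letters, TTGCATCA, and the remaining 3 are TGATGAAA in ASNS, TTTCATCA in GARS1 and TGATGCAA in NARS1. A match describes the sequence and does not show that a factor binds there.

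The WARS1 promoter is shown because WARS1 is known as an interferon-induced gene. An interferon-stimulated response element, searched as GAAANNGAA on both strands, occurred in 4 of the 41 member windows (9.76%) and in 8.11% of all windows. A gamma-activated site, the STAT motif TTCNNNGAA, occurred in 4 (9.76%) and in 7.66% of all windows. One WARS1 window holds both, with first bases at -142 (gamma-activated site) and -55 (interferon-stimulated response element). The stretch, both matches in capitals, lies at chr14:100375364-100375519.
WARS1: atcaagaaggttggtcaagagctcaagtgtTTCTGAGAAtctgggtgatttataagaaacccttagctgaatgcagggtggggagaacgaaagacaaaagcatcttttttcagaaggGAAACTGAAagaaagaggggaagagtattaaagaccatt
A glucocorticoid response element, searched as ACANNNTGT (the same on both strands), occurred in none of the 41 member windows and in 5.37% of all windows. This says only that these letters are not in these windows.

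LPS changed most of the 34 genes at the mRNA level. Of the 34, 22 rose and 7 fell in RNA, where 28.6% of all 13327 tested genes rose and 33.6% fell (edgeR's quasi-likelihood test, threshold 0.05 on the Benjamini-Hochberg adjusted p). Changes below are log2 fold changes ± SE from that fit. The median log2 fold change was 0.38 over the members and -0.05 over all genes. In footprints 17 members rose and 5 fell, against 25.4% and 27.2% of 12197 genes, with medians of 0.26 and -0.04. The risers were mostly synthetases and stress regulators, and the fallers included the serine synthesis enzymes PHGDH, PSAT1 and PSPH.

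Dexamethasone on top of LPS changed fewer members, as it did fewer of all genes, and most of the members it changed fell. In RNA 3 rose (8.82%) and 7 fell (20.6%), against backgrounds of 15.5% and 15.4%. In footprints 1 rose (2.94%) and 4 fell (11.8%), against 9.08% and 7.99%. The shares that fell were thus not far above those of all genes, and the shares that rose were below them. The member median was -0.15 in RNA and -0.10 in footprints, beside 0.01 and 0.02 over all genes. The footprint count moved with libraries 4. With the replicate number as a block 2 rose and 11 fell, and without the 3 libraries numbered 4 these were 2 and 10. Calls over all genes grew as well, from 2083 of 12197 in the main fit to 3769 of 12197 with the block. Without libraries 4 they were 3855 of 12233. In RNA the split was 2 higher and 9 lower with DESeq2 size factors, and 3 and 13 when only the LPS and LPS+Dex libraries were fitted. Over all genes 4123 of 13327 were called with DESeq2 size factors, as in the main fit. With only the 2 treatments these were 4900 of 12836. This comparison shares its LPS libraries with the first one, so the 2 sets of values are given side by side only.

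Against vehicle, LPS+Dex left 19 members higher and 8 lower in RNA (backgrounds 29.2% and 31%), and 12 higher and 7 lower in footprints (24.4% and 22%). In RNA the 19 comprised 5 stress regulators, MTHFD2 and 13 synthetases. IARS1, QARS1, SHMT2 and VLDLR, which LPS alone had changed, no longer passed against vehicle, while TRIB3 (-0.28 ± 0.10, adjusted p = 0.0241) and NARS1 (-0.21 ± 0.08, adjusted p = 0.0382) were lower. Each of these 2 calls was lost without any 1 of 4 of the 8 libraries (adjusted p up to 0.0804 for TRIB3 and 0.125 for NARS1), and NARS1 also with DESeq2 size factors (adjusted p = 0.0539). The RNA rises of MARS1 and YARS1 were each lost in 3 of the 8 fits with 1 library left out, and that of PPP1R15A in 1. YARS1 was also lost with only the 2 treatments fitted (adjusted p = 0.0552). In footprints the call of VARS1 was lost in 5 of 10 such leave-one-out fits and that of AARS1 in 4. The plot of mRNA against footprint changes shows all 34 for the first 2 comparisons.

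**Figure D1:**
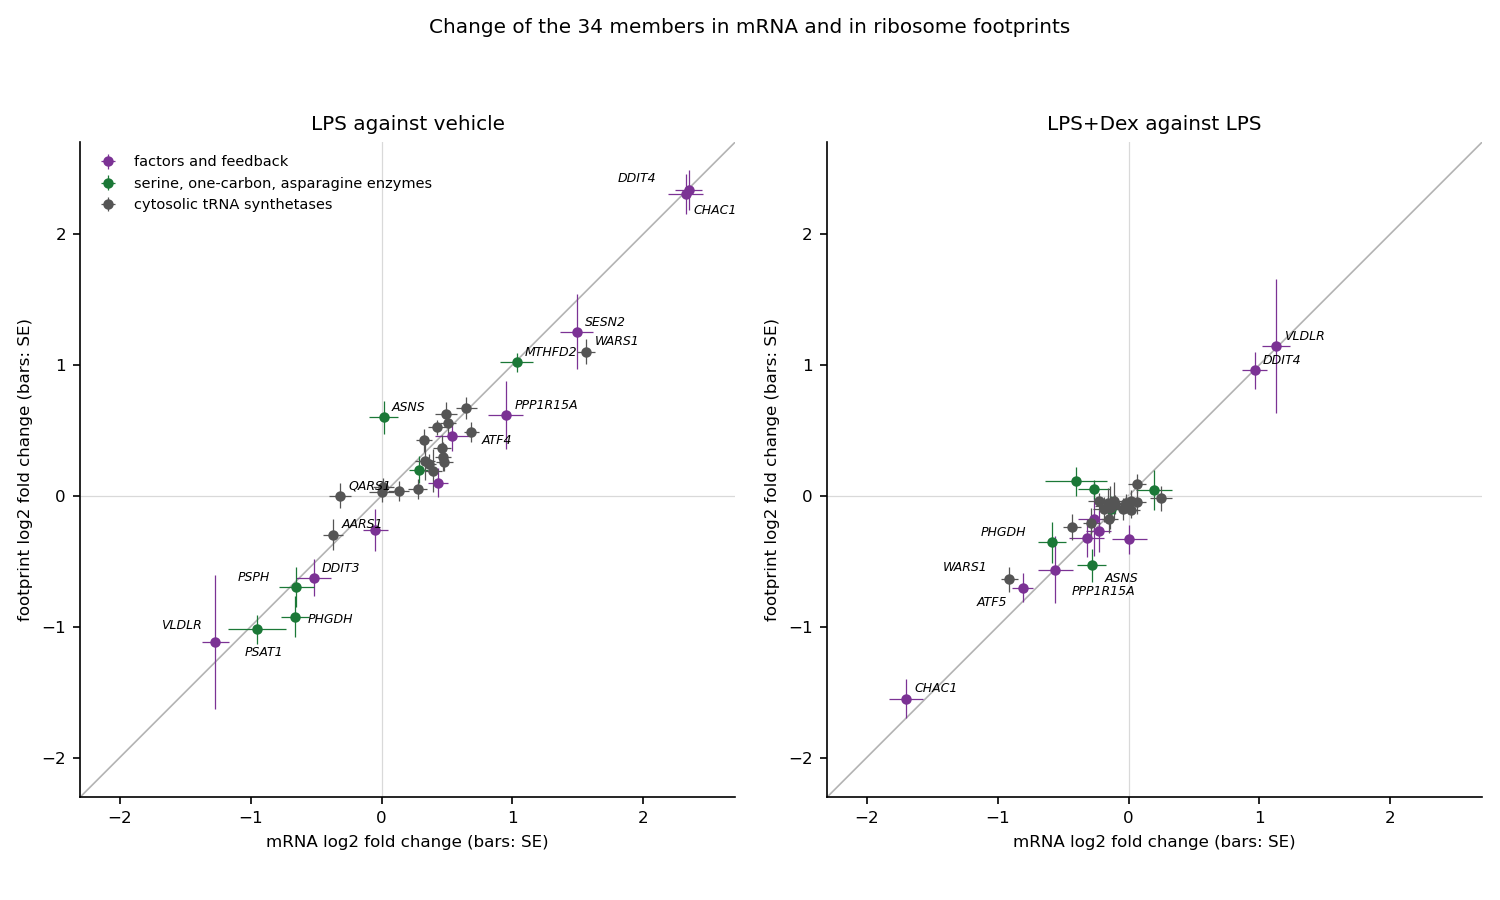
Log2 fold change in ribosome footprints (y axis) against mRNA (x axis) of the 34 members, for LPS against vehicle (left) and LPS+Dex against LPS (right); bars are standard errors, colours give the role, and the line marks equal change. CHAC1 and DDIT4 lie near 2.3 on both axes with LPS, and dexamethasone moved CHAC1 down and DDIT4 further up.

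ATF4, the factor itself, rose with LPS in mRNA and in footprints. ATF4 mRNA was at 295, 316.5, 205.5 and 224 CPM (libraries in replicate order) with vehicle, 372.5, 446, 347 and 349 with LPS and 355, 387.5, 352 and 428 with LPS+Dex. All 4 libraries of each LPS group lay above all 4 vehicle libraries. The rise was 0.54 ± 0.13 (adjusted p = 0.00267), and the difference between LPS+Dex and LPS was 0.01 ± 0.13 (adjusted p = 0.973). ATF4 footprints were at 6.33, 6.12, 6.42, 6.89 and 6.43 CPM with vehicle, 8.15, 7.46, 8.23, 9.07 and 11.2 with LPS and 7.65, 6.91, 6.20, 6.56 and 7.60 with LPS+Dex. The LPS libraries all lay above the vehicle libraries, while the LPS and LPS+Dex libraries overlapped. Footprints rose with LPS by 0.46 ± 0.11 (adjusted p = 0.00294). With dexamethasone they differed from LPS by -0.33 ± 0.11 (adjusted p = 0.0536), which missed the threshold. The difference passed with the replicate block (-0.32, adjusted p = 0.0309), with DESeq2 (-0.34, adjusted p = 0.0288) and with DESeq2 size factors (-0.35, adjusted p = 0.0438). With 1 library left out it passed only without LPS library 2 (-0.39, adjusted p = 0.0333). Without libraries 4 it did not pass (-0.29, adjusted p = 0.0849).

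DDIT3 encodes CHOP, the transcription factor that ATF4 induces in prolonged stress, and it fell. DDIT3 mRNA was at 140.1, 166, 104 and 125 CPM with vehicle, 91.3, 111, 86.8 and 84.7 with LPS and 69.5, 73.2, 69.1 and 87.4 with LPS+Dex. LPS library 2 reached into the vehicle range, and all LPS+Dex libraries lay below it. With LPS the change was -0.52 ± 0.13 (adjusted p = 0.00381) in RNA and -0.63 ± 0.14 (adjusted p = 0.00164) in footprints. DDIT3 footprints were at 9.81, 11.0, 8.82, 12.6 and 11.5 CPM with vehicle, 5.77, 7.11, 7.33, 9.33 and 5.29 with LPS and 5.86, 5.60, 5.54, 5.32 and 5.35 with LPS+Dex. LPS library 4 lay within the vehicle range and the other 4 below it. LPS+Dex differed from LPS by -0.32 ± 0.13 (adjusted p = 0.0872) in RNA, short of the threshold, and passed with only these 2 treatments fitted (-0.33, adjusted p = 0.0233). LPS+Dex against vehicle gave -0.84 ± 0.13 (adjusted p = 0.000105). DDIT3 (chr12:57516588-57520517) overlaps the end of MARS1 (chr12:57488068-57516652), and the strand setting of the counting is not given in the sources used here.

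ATF5, a relative of ATF4 that is itself under upstream reading frames, rose in RNA with LPS and fell below vehicle with dexamethasone. ATF5 mRNA was at 403.5, 423, 344 and 362 CPM with vehicle, 503, 544, 519 and 499 with LPS and 293, 298, 265 and 322 with LPS+Dex. The 3 groups did not overlap. The changes were 0.43 ± 0.08 (adjusted p = 0.000277) with LPS and -0.81 ± 0.08 (adjusted p = 2.31e-06) for LPS+Dex against LPS. Its footprints did not pass the test with LPS (0.10 ± 0.11, adjusted p = 0.489) and fell with dexamethasone (-0.70 ± 0.11, adjusted p = 0.000372). ATF5 overlaps the loci of IL4I1 and NUP62, so reads could be shared. The same holds for other members with overlapping genes. Among these are VLDLR, CARS1, YARS1, MTHFD2, SHMT2 (with COXFA4L2), ASNS (with CZ1P-ASNS), FARSA (with FARSA-AS1) and MARS1 (with ARHGAP9).

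CHAC1, which breaks down glutathione, rose with LPS in both assays and, of the 34, fell most with dexamethasone in both. CHAC1 mRNA was at 5.74, 5.45, 5.62 and 7.34 CPM with vehicle, 33.4, 28.0, 31.5 and 28.1 with LPS and 8.56, 10.2, 10.8 and 7.63 with LPS+Dex. CHAC1 footprints were at 10.1, 7.09, 9.19, 9.05 and 10.4 CPM with vehicle, 57.1, 47.2, 44.6, 32.5 and 45.4 with LPS and 17.4, 16.1, 16.8, 15.5 and 11.7 with LPS+Dex. In both assays every LPS library was above every vehicle and every LPS+Dex library, and every LPS+Dex library was above every vehicle library. LPS raised CHAC1 mRNA 5.00-fold (2.32 ± 0.13, adjusted p = 2.78e-09) and its footprints 4.95-fold (2.31 ± 0.15, adjusted p = 1.19e-08). Dexamethasone lowered the mRNA 3.25-fold (-1.70 ± 0.13, adjusted p = 2.27e-07) and the footprints 2.93-fold (-1.55 ± 0.15, adjusted p = 2.74e-06).

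DDIT4 encodes REDD1, an inhibitor of the growth kinase complex mTORC1, and glucocorticoids are known to raise it. DDIT4 mRNA was at 5.45, 6.23, 6.52 and 5.21 CPM with vehicle, 29.4, 27.2, 29.8 and 32.8 with LPS and 53.7, 52.9, 60.8 and 64.9 with LPS+Dex. DDIT4 footprints were at 10.1, 8.70, 8.86, 11.7 and 6.62 CPM with vehicle, 49.2, 41.8, 36.6, 51.1 and 52.5 with LPS and 92.6, 91.1, 108, 76.6 and 81.5 with LPS+Dex. The 3 treatments followed in the order vehicle, LPS, LPS+Dex with no overlap in either assay. LPS raised DDIT4 mRNA 5.08-fold (2.35 ± 0.10, adjusted p = 2.34e-10) and dexamethasone a further 1.95-fold (0.96 ± 0.10, adjusted p = 3.08e-06). The footprints rose 5.04-fold (2.33 ± 0.15, adjusted p = 8.66e-09) and 1.94-fold (0.96 ± 0.14, adjusted p = 0.000185). It was the only one of the 34 that rose with dexamethasone in both assays in the edgeR fit, and VLDLR did so too with the replicate block and without libraries 4.

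SESN2, sestrin 2, a leucine sensor that also restrains mTORC1, rose with LPS. SESN2 mRNA was at 17.4, 14.2, 19.9 and 19.1 CPM with vehicle, 50.1, 40.6, 59.1 and 48.4 with LPS and 43.6, 37.6, 45.2 and 39.1 with LPS+Dex. SESN2 footprints were at 23.1, 21.1, 19.6, 48.3 and 20.8 CPM with vehicle, 56.3, 52.5, 47.7, 101 and 58.1 with LPS and 48.7, 49.2, 46.3, 88.6 and 45.9 with LPS+Dex. Library 4 was the highest footprint library of each treatment, and the vehicle library 4 reached into the LPS range. LPS raised SESN2 by 1.49 ± 0.13 (adjusted p = 1.94e-07) in RNA and 1.25 ± 0.29 (adjusted p = 0.00182) in footprints. LPS+Dex against LPS gave -0.26 ± 0.12 (adjusted p = 0.125) in RNA and -0.18 ± 0.28 (adjusted p = 0.769) in footprints, neither past the threshold, though in RNA the difference passed without LPS library 2 (-0.34, adjusted p = 0.0391).

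VLDLR, a lipoprotein receptor and ATF4 target, fell in RNA with LPS and rose with dexamethasone. VLDLR mRNA was at 23.7, 23.5, 28.6 and 28.6 CPM with vehicle, 11.2, 8.94, 11.4 and 11.7 with LPS and 23.5, 24.1, 24.0 and 22.9 with LPS+Dex. LPS libraries lay below the other 2 groups without overlap. The changes in mRNA were -1.27 ± 0.10 (adjusted p = 1.31e-07) with LPS and 1.12 ± 0.10 (adjusted p = 1.56e-06) for LPS+Dex against LPS, and LPS+Dex against vehicle gave -0.15 ± 0.10 (adjusted p = 0.226). VLDLR footprints were at 29.2, 34.7, 29.6, 106 and 26.8 CPM with vehicle, 11.6, 14.7, 12.5, 52.5 and 13.5 with LPS and 36.6, 39.1, 30.9, 91.1 and 32.1 with LPS+Dex. Library 4 held more than any other library of its treatment. The footprint changes were -1.11 ± 0.51 (adjusted p = 0.0808) and 1.14 ± 0.51 (adjusted p = 0.159), neither past the threshold. With the replicate block they were -1.15 (adjusted p = 2.16e-08) and 1.27 (adjusted p = 2.58e-08), and without libraries 4 they were -1.21 (adjusted p = 4e-10) and 1.42 (adjusted p = 9.17e-11).

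PPP1R15A encodes GADD34, the eIF2 phosphatase subunit, and its mRNA rose with LPS and fell with dexamethasone. PPP1R15A mRNA was at 726, 727, 582 and 453 CPM with vehicle, 1161, 1343, 1217 and 1085 with LPS and 797, 818, 720.5 and 924 with LPS+Dex. LPS libraries lay above both other groups, with changes of 0.95 ± 0.13 (adjusted p = 2.82e-05) with LPS and -0.56 ± 0.13 (adjusted p = 0.00513) for LPS+Dex against LPS. PPP1R15A footprints were at 154, 143, 148, 268 and 116 CPM with vehicle, 206, 246, 216, 401 and 199 with LPS and 150.2, 145, 145, 272 and 145 with LPS+Dex. Library 4 was again the highest of each treatment. Its footprint changes were 0.61 ± 0.26 (adjusted p = 0.0592) and -0.56 ± 0.26 (adjusted p = 0.169). With the replicate block they passed, at 0.62 (adjusted p = 4.45e-07) and -0.56 (adjusted p = 4.66e-06), and without libraries 4 at 0.62 (adjusted p = 3.03e-07) and -0.56 (adjusted p = 4.08e-06). TRIB3, a pseudokinase that restrains ATF4 and CHOP, gave -0.05 ± 0.10 (adjusted p = 0.68) in RNA with LPS. Its footprints gave -0.26 ± 0.16 (adjusted p = 0.187), -0.26 (adjusted p = 0.0196) with the replicate block and -0.23 (adjusted p = 0.0646) without libraries 4, so only the fit with the block passed. For LPS+Dex against LPS the footprints gave -0.27 ± 0.16 (adjusted p = 0.315) and passed with the block (-0.28, adjusted p = 0.0317) and without libraries 4 (-0.32, adjusted p = 0.0353).

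**Figure D2:**
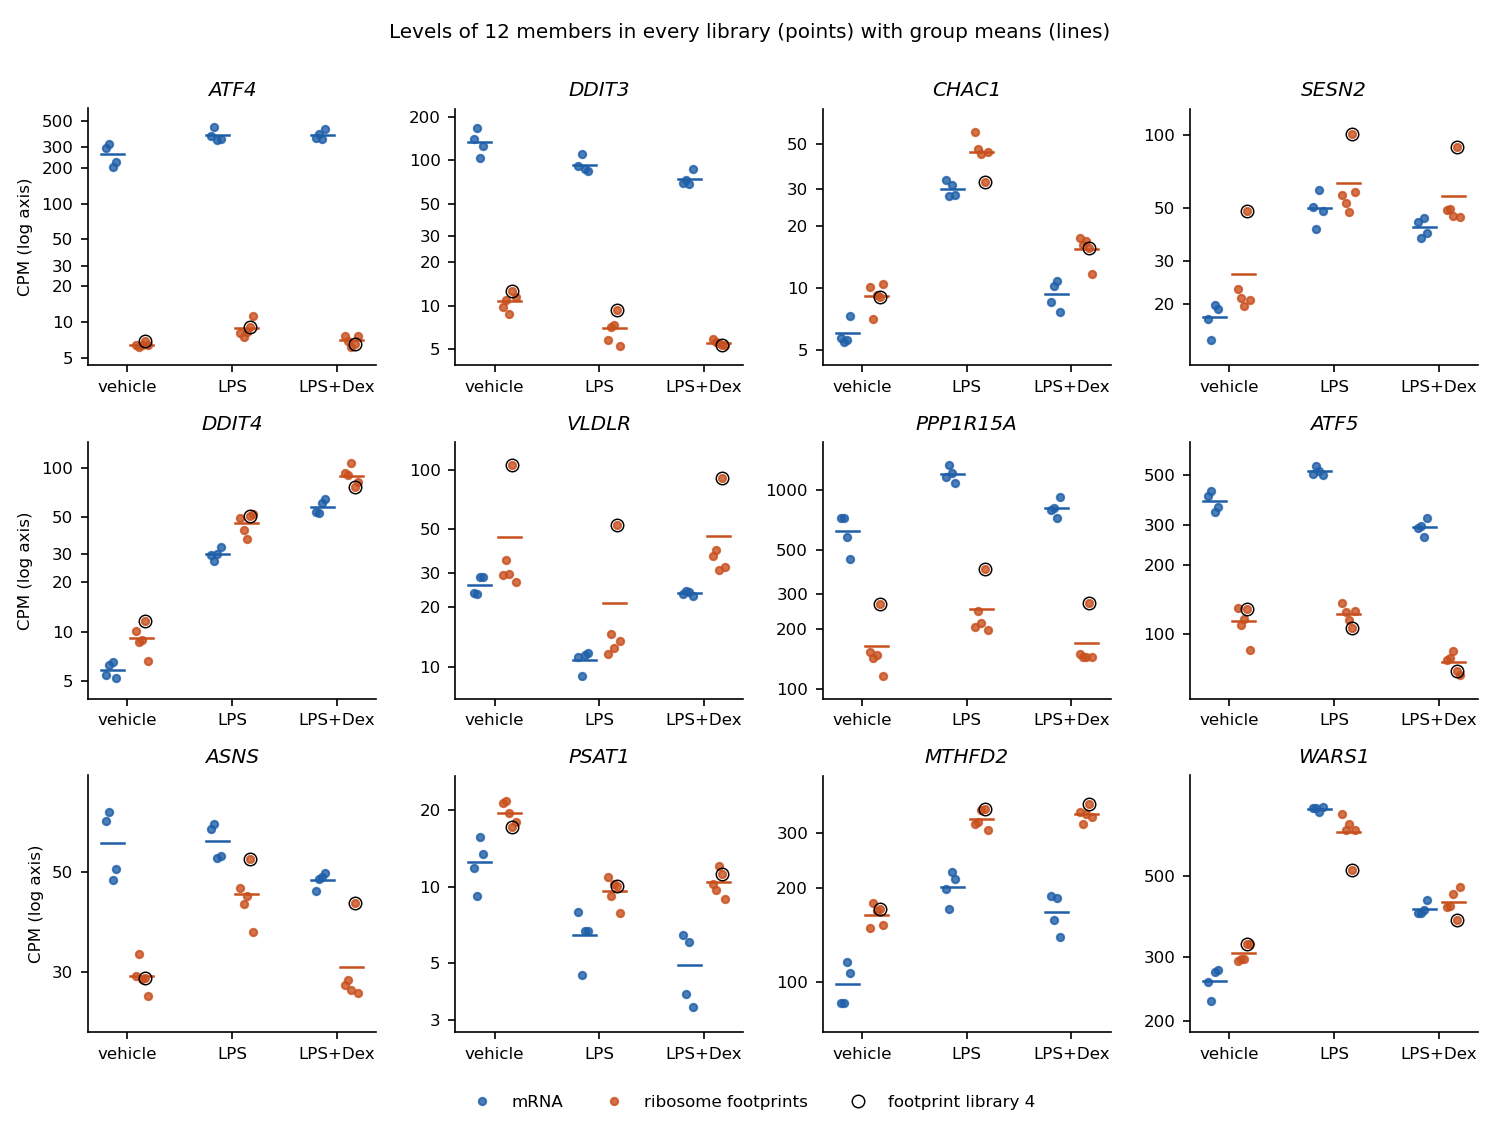
CPM (log axis) of 12 members in each library by treatment, mRNA in blue (n = 4) and ribosome footprints in orange (n = 5), with lines at the group means and the footprint library numbered 4 of each treatment circled. ATF4 footprints lie between 6.12 and 11.2 CPM while its mRNA lies between 205.5 and 446, and the circled libraries are the highest for SESN2, VLDLR and PPP1R15A.

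The amino acid enzymes split. The serine pathway enzymes PHGDH, PSAT1 and PSPH fell with LPS in both assays, while MTHFD2 rose in both and SHMT2 in RNA. PHGDH catalyses the entry step of serine synthesis from glycolysis. PHGDH mRNA was at 47.8, 45.2, 38.5 and 36.0 CPM with vehicle, 26.7, 30.6, 25.4 and 23.4 with LPS and 16.4, 18.2, 17.2 and 18.7 with LPS+Dex. The 3 groups did not overlap, and PHGDH mRNA fell with LPS (-0.66 ± 0.11, adjusted p = 9.80e-05) and again with dexamethasone (-0.59 ± 0.11, adjusted p = 0.000886). Its footprints fell with LPS (-0.93 ± 0.16, adjusted p = 0.000151). With dexamethasone they gave -0.35 ± 0.16 (adjusted p = 0.154), which passed with the block (-0.34, adjusted p = 0.0389) and without libraries 4 (-0.46, adjusted p = 0.00268).

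PSAT1, the next enzyme, fell with LPS in both assays. PSAT1 mRNA was at 11.9, 9.21, 15.7 and 13.5 CPM with vehicle, 7.97, 4.52, 6.74 and 6.72 with LPS and 6.50, 3.78, 6.07 and 3.38 with LPS+Dex. PSAT1 footprints were at 21.4, 21.8, 19.6, 17.3 and 18.1 CPM with vehicle, 10.9, 9.20, 10.3, 10.1 and 7.88 with LPS and 10.3, 9.77, 12.1, 11.3 and 8.93 with LPS+Dex. In both assays all LPS and LPS+Dex libraries lay below all vehicle libraries. The LPS effect was -0.95 ± 0.22 (adjusted p = 0.0021) in RNA and -1.02 ± 0.11 (adjusted p = 1.82e-06) in footprints, and LPS+Dex against LPS gave -0.40 ± 0.24 (adjusted p = 0.222) and 0.11 ± 0.11 (adjusted p = 0.606), neither past the threshold. PSPH, the last step, fell in RNA (-0.65 ± 0.13, adjusted p = 0.000712) and in footprints (-0.70 ± 0.15, adjusted p = 0.0012).

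MTHFD2, a mitochondrial folate enzyme that uses serine-derived carbon, rose with LPS in both assays. MTHFD2 mRNA was at 86.0, 85.7, 116 and 107 CPM with vehicle, 198, 171.5, 225 and 213 with LPS and 189, 158, 186 and 139 with LPS+Dex. MTHFD2 footprints were at 149, 179, 168, 172 and 153 CPM with vehicle, 319, 326, 354, 356 and 307 with LPS and 348, 319.8, 344, 369 and 338 with LPS+Dex. LPS libraries were above vehicle libraries without overlap in both assays. LPS raised MTHFD2 2.04-fold in RNA (1.03 ± 0.13, adjusted p = 7.54e-06) and 2.02-fold in footprints (1.02 ± 0.07, adjusted p = 3.43e-08). Dexamethasone gave -0.26 ± 0.12 (adjusted p = 0.127) in RNA and 0.05 ± 0.07 (adjusted p = 0.758) in footprints, neither past the threshold. SHMT2, which feeds MTHFD2, rose slightly in RNA (0.29 ± 0.07, adjusted p = 0.00361). Its footprints gave 0.20 ± 0.10 (adjusted p = 0.125), which passed with the block (0.20, adjusted p = 0.0345) and without libraries 4 (0.28, adjusted p = 0.0041).

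ASNS, asparagine synthetase and a textbook ATF4 target, rose in footprints with LPS and fell with dexamethasone, while its mRNA did not pass the test for LPS. ASNS mRNA was at 64.5, 67.6, 48.0 and 50.6 CPM with vehicle, 61.9, 63.6, 53.4 and 54.0 with LPS and 45.2, 48.2, 48.6 and 49.7 with LPS+Dex. The LPS range lay inside the vehicle range, and the change was 0.02 ± 0.11 (adjusted p = 0.912). LPS+Dex against LPS gave -0.28 ± 0.11 (adjusted p = 0.069) in RNA, with all LPS+Dex libraries below all LPS libraries. That fall passed with DESeq2 (-0.30, adjusted p = 0.0423) and with only these 2 treatments fitted (-0.29, adjusted p = 0.00982). ASNS footprints were at 29.5, 32.9, 28.9, 29.2 and 26.6 CPM with vehicle, 46.0, 42.4, 44.3, 53.4 and 36.7 with LPS and 28.2, 28.9, 27.5, 42.5 and 26.97 with LPS+Dex. All LPS footprint libraries exceeded all vehicle libraries. The changes in footprints were 0.60 ± 0.13 (adjusted p = 0.00108) with LPS and -0.53 ± 0.13 (adjusted p = 0.00861) for LPS+Dex against LPS. LPS+Dex library 4 was the only LPS+Dex library inside the LPS range.

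Most cytosolic synthetase genes rose together and by small amounts with LPS. Each of these enzymes charges tRNA with 1 amino acid (EPRS1 with a pair), and 14 of the 19 rose in RNA, with 2 falling, against the backgrounds of 28.6% and 33.6%. The median log2 fold change of the 19 was 0.39. WARS1 was the largest riser, followed by LARS1 (0.68 ± 0.06, adjusted p = 1.38e-07) and FARSB (0.65 ± 0.08, adjusted p = 7.24e-06). The other 11 risers were GARS1, TARS1, VARS1, YARS1, IARS1, KARS1, CARS1, SARS1, MARS1, RARS1 and HARS1, with changes of 0.28 to 0.51. AARS1 (-0.37 ± 0.08, adjusted p = 0.000707) and QARS1 (-0.32 ± 0.09, adjusted p = 0.00513) fell. EPRS1, FARSA and NARS1 did not pass the test (0.00, 0.13 and 0.01).

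LARS1, which charges leucine, rose next to WARS1 in size. LARS1 mRNA was at 531, 523, 481 and 509 CPM with vehicle, 824, 867.5, 775 and 819 with LPS and 757, 787, 754.5 and 759.8 with LPS+Dex. The LPS and LPS+Dex libraries lay above vehicle without overlap. AARS1, which charges alanine, was lower in every LPS library than in every vehicle library. AARS1 mRNA was at 325, 267, 322.5 and 324 CPM with vehicle, 251, 228, 241 and 237.5 with LPS and 220.1, 208, 233 and 199 with LPS+Dex. FARSA and FARSB, the partner subunits of 1 enzyme, gave 0.13 (adjusted p = 0.172) and 0.65. FARSB mRNA was at 176, 173, 139 and 147 CPM with vehicle, 251, 266, 237 and 241 with LPS and 241, 251.5, 232 and 243 with LPS+Dex. FARSA RNA lay between 241 and 306 CPM with vehicle and between 275 and 320 with LPS, with overlap. The difference between the subunits was not itself tested.

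In footprints 11 of the 19 synthetases rose with LPS and 1 fell, beside 25.4% and 27.2% of all genes. The risers ran from SARS1 (0.25 ± 0.07, adjusted p = 0.0114) to WARS1, and FARSB (0.67 ± 0.08, adjusted p = 8.62e-06) was the next largest. The call of AARS1 (-0.30 ± 0.12, adjusted p = 0.0456) was lost when any 1 of 8 of the 10 libraries was left out, and that of YARS1 (0.30 ± 0.11, adjusted p = 0.0346) with any 1 of 7. CARS1 (0.19, adjusted p = 0.00475) and MARS1 (0.28, adjusted p = 0.000271) passed with the replicate block, and also without libraries 4, at 0.20 (adjusted p = 0.00849) and 0.30 (adjusted p = 0.000723). QARS1 footprints gave 0.00 ± 0.09 (adjusted p = 0.997).

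With dexamethasone on LPS, 3 synthetases fell in RNA and 1 rose, where 15.4% of all genes fell and 15.5% rose, so the share that fell (15.8%) was near the background and the share that rose (5.26%) below it. WARS1 fell most, then IARS1 (-0.43 ± 0.07, adjusted p = 0.000224) and YARS1 (-0.28 ± 0.06, adjusted p = 0.00329). QARS1 rose by 0.25 ± 0.09 (adjusted p = 0.0395), a call lost with DESeq2 (adjusted p = 0.0545), with DESeq2 size factors (adjusted p = 0.0642) and without any 1 of 5 of the 8 libraries (adjusted p up to 0.117). In footprints WARS1 alone passed. With the block IARS1 (-0.24, adjusted p = 0.00407), YARS1 (-0.22, adjusted p = 0.00824) and GARS1 (-0.19, adjusted p = 0.0276) passed as well, and so they did without libraries 4, at -0.23 (adjusted p = 0.00237), -0.26 (adjusted p = 0.000616) and -0.21 (adjusted p = 0.00969). In RNA CARS1, GARS1, NARS1 and SARS1 fell too when only the LPS and LPS+Dex libraries were fitted.

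WARS1, the tryptophan enzyme and the synthetase known to be raised by interferons, rose most of the 19 with LPS in both assays and fell most with dexamethasone. WARS1 mRNA was at 256, 228, 274 and 277 CPM with vehicle, 768, 766, 751 and 771 with LPS and 395, 396, 404.5 and 430.5 with LPS+Dex. WARS1 footprints were at 294, 297, 296, 326 and 325 CPM with vehicle, 740.4, 669.8, 694, 520.0 and 669.9 with LPS and 411, 413, 447, 379.9 and 468 with LPS+Dex. The order vehicle, LPS+Dex, LPS held with no overlap in both assays, and library 4 was the lowest LPS footprint library. LPS raised WARS1 2.95-fold in RNA (1.56 ± 0.07, adjusted p = 1.53e-10) and 2.14-fold in footprints (1.10 ± 0.10, adjusted p = 2e-07). Dexamethasone lowered it 1.88-fold (-0.91 ± 0.07, adjusted p = 1.48e-07) and 1.55-fold (-0.64 ± 0.09, adjusted p = 0.000192).

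**Figure D3:**
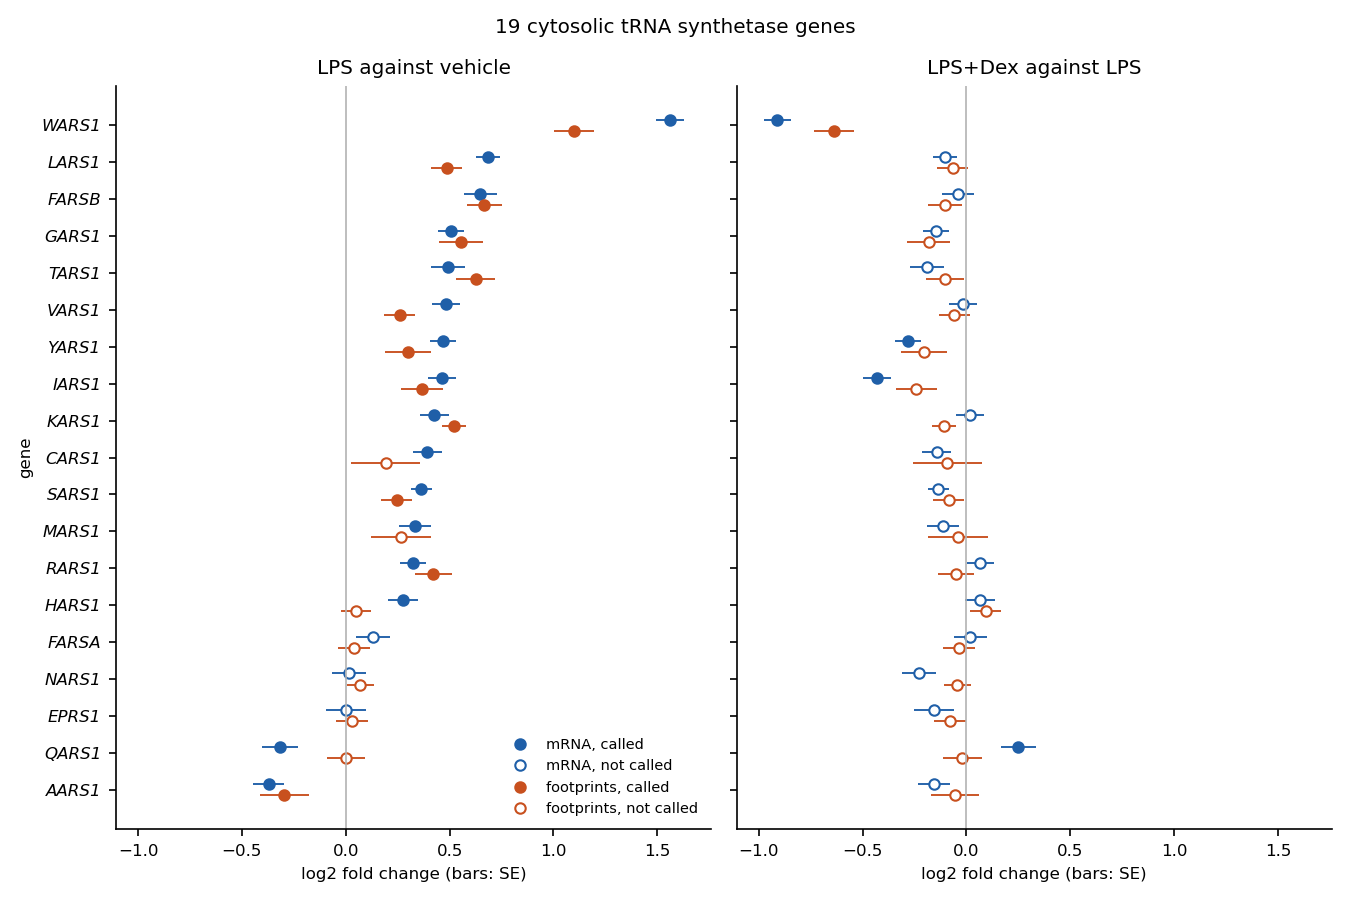
Log2 fold change (x axis) of the 19 cytosolic tRNA synthetase genes, ordered by their mRNA change with LPS, for LPS against vehicle (left) and LPS+Dex against LPS (right); filled points passed the edgeR test, open points did not, and bars are standard errors. WARS1 stands at 1.56 with LPS in mRNA, while the other 18 lie between -0.37 and 0.68.

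The 9 genes with the C/EBP-ATF element moved in both directions. With LPS in RNA CHAC1, CARS1, GARS1, IARS1, MARS1 and TARS1 rose, AARS1 fell, and ASNS and NARS1 did not pass the test. Their median log2 fold change was 0.39, beside 0.34 for the 20 members whose windows held no match, a description with no test.

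Levels of footprints per mRNA, the ratio of mean footprint CPM to mean RNA CPM, differed widely between the members. Gene length cancels in this ratio only if both assays were counted over the same feature, and whether coding sequence or whole exons were counted is not given in the sources used here. With vehicle ATF4 had 0.0247 footprints per mRNA, the 58th lowest of 11944 genes, against a median of 0.732. DDIT3 had 0.0802, PPP1R15A 0.266 and ATF5 0.297, and these 4 were the lowest of the 34. All 4 mRNAs are textbook cases of control by upstream reading frames, and the part of that control in these ratios was not tested. CHAC1 (1.52), SESN2 (1.51), DDIT4 (1.57), PSAT1 (1.56), MTHFD2 (1.66) and VLDLR (1.73) were the highest. The ratios of VLDLR and SESN2 are raised by vehicle footprint library 4. It was at 106.1 CPM for VLDLR, against 26.8 to 34.7 in the other vehicle libraries, and at 48.3 for SESN2, against 19.6 to 23.1. Ratios without library 4 were not computed. The synthetases ran from 0.394 (MARS1) to 1.19 (WARS1). With LPS ATF4 was at 0.0233 and with LPS+Dex at 0.0184, the lowest of the 34 in each treatment.

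**Figure D4:**
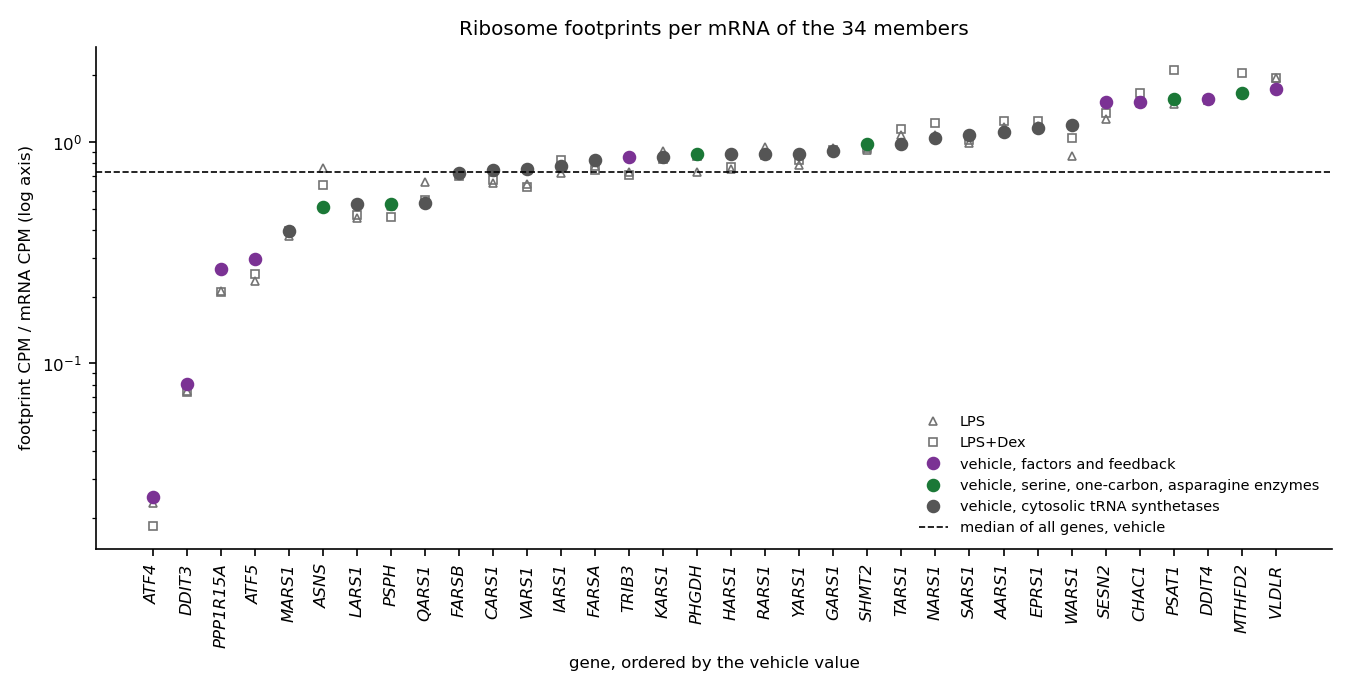
Footprint CPM divided by mRNA CPM (log axis) of each of the 34 members with vehicle (filled, coloured by role), LPS (triangles) and LPS+Dex (squares), ordered by the vehicle value, with the median of all genes (0.732) dashed. ATF4 (0.0247), DDIT3, PPP1R15A and ATF5 lie below the other 30 members. The vehicle values of VLDLR and SESN2 are raised by footprint library 4.

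No change of footprints per mRNA passed the test in any member. Of the 34, 0 rose and 0 fell with LPS (1.05% and 0.687% of all genes), with dexamethasone on LPS (0.0586% and 0.0167%) and with LPS+Dex against vehicle (1.41% and 0.519%). At an unadjusted p under 0.05 the counts were 3, 2 and 5, and DESeq2 called 2, 0 and 0. Of all 11944 genes, 1360, 646 and 1797 had an unadjusted p under 0.05, and DESeq2 called 404, 23 and 461. ATF4 gave -0.04 ± 0.18 (adjusted p = 0.98) with LPS, with a 95% interval of -0.40 to 0.31. Nearest to the threshold with LPS were ASNS (0.62 ± 0.17, adjusted p = 0.0699) and WARS1 (-0.42 ± 0.13, adjusted p = 0.103). ASNS passed with DESeq2 (0.60, adjusted p = 0.0454), with the replicate block (0.60, adjusted p = 0.0059) and without libraries 4 (0.58, adjusted p = 0.0177). WARS1 gave -0.45 (adjusted p = 0.0094) with DESeq2, -0.44 (adjusted p = 0.0164) with the replicate block and -0.30 (adjusted p = 0.0499) without libraries 4. QARS1 gave 0.36 ± 0.15 (adjusted p = 0.287) and passed with the block (0.35, adjusted p = 0.0255) and without libraries 4 (0.42, adjusted p = 0.0241). For LPS+Dex against vehicle NARS1 gave 0.28 ± 0.11 (adjusted p = 0.192) and passed without libraries 4 (0.32, adjusted p = 0.0398).

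Genes around the pathway that are not among the 34 were read from lists of known roles, in RNA. Of 20 tested other ATF4 targets, 3 rose (15%) and 9 fell (45%) with LPS, where 28.6% and 33.6% of all genes did. CEBPB, the C/EBP partner, rose most (1.30 ± 0.16, adjusted p = 6.65e-06) and CBS, a transsulfuration enzyme, fell most (-1.43 ± 0.21, adjusted p = 4.65e-05). With dexamethasone on LPS 6 rose (30%) and 2 fell (10%), beside 15.5% and 15.4% of all genes, led by JDP2 (2.47) and ATF3 (-1.85). Of 10 amino acid transporters 2 rose (20%) and 5 fell (50%) with LPS, led by SLC7A11, the cystine importer (1.03), and SLC43A1 (-1.14). With dexamethasone 3 rose and 3 fell (30% each), led by SLC38A1 (2.61) and SLC7A11 (-1.61).

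Of 17 genes of the eIF2 kinases, eIF2, its exchange factor and their regulators, 9 rose (52.9%) and 4 fell (23.5%) with LPS, beside the same 28.6% and 33.6%. EIF2AK2, the interferon-induced RNA sensor PKR, rose most (2.42 ± 0.16, adjusted p = 1.73e-08) and EIF2AK4, the amino acid sensor GCN2, fell most (-0.81 ± 0.08, adjusted p = 1.53e-06). For LPS+Dex against LPS 3 rose and 3 fell (17.6% each, near the 15.5% and 15.4% of all genes), EIF2AK4 (0.63) and EIF2AK2 (-1.14) the most. Of 17 mitochondrial synthetases 4 rose (23.5%) and 5 fell (29.4%) with LPS, near those shares of all genes, led by WARS2 (0.83) and NARS2 (-0.63). With dexamethasone 2 rose (11.8%) and 1 fell (5.88%), both below those shares (CARS2 0.52, EARS2 -0.52).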

How the data were processed

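The authors deposited raw counts per gene for 12 RNA and 15 footprint libraries. The submitters' processing notes name GRCh38 and list, without saying how each was used, Bowtie2 2.4.5 for the footprint libraries and, for both assays, STAR 2.7.10a, DESeq2 1.26.0 and featureCounts 2.0.1. Which annotation was used, whether exons or only coding sequence were counted, with which strand setting, and what was done with multiply mapped reads is not given in the sources used here. Footprints came from RNase I digestion with rRNA depletion and cycloheximide in the lysis buffer, per the labels.

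From the counts, CPM were computed with TMM-scaled library sizes, and differences with edgeR 4.0.16 in R 4.3.3: filterByExpr (minimum count 10, minimum total 15), TMM, quasi-likelihood F tests over all treatments of an assay, and Benjamini-Hochberg adjustment over all genes tested (13327 in RNA, 12197 in footprints), called under 0.05. The change in footprints per mRNA is the interaction of assay and treatment in 1 fit of all 27 libraries (11944 genes). The RNA came from the profiled cells, but no RNA library was linked to a footprint library, also not with the replicate block. These p-values thus treat the 27 libraries as independent. An SE is the log2 fold change divided by the root of F. The fits were tested on simulated counts. Alternatives were DESeq2 1.42.0, its size factors, no filter, only the treatments compared, the replicate number as a block, leaving out each library, and leaving out the 3 footprint libraries numbered 4. Same-numbered footprint libraries deviated together (r over 0.1 in 15 of 15 pairs, lowest 0.182), but so did 34 of 60 pairs with different numbers. Without number 4 these were 3 of 12 and 2 of 36, so whether the numbers mark pairs is not settled. The main fits used no pairing. Members, lists and alternatives were chosen with earlier results of these data known. Given library by library were ATF4, DDIT3 and members called in RNA or footprints with an absolute log2 fold change of at least 1. ATF5, PPP1R15A, ASNS, PHGDH, LARS1, AARS1 and FARSB were added after their values were seen. From each other list the called genes with the largest rise and fall are named. The result of 1 further list is not reported here. Promoter windows are RefSeq, GRCh38.p14.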

Additional observations from a re-analysis of the deposited data

Results flagged for a closer look

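Each value here stood apart from the other libraries of its treatment: its gap to the nearest library, divided by the range of the group, passed Dixon's 95% limit for that group size. Of 204 groups of libraries (34 genes, 3 treatments, 2 assays), 26 did so, and chance alone gives about 1 in 20. Of the 102 RNA groups 6 were flagged, and of the 102 footprint groups 20. All 20 footprint flags fell on a library numbered 4, which was the highest of its treatment in 19 and the lowest in 1.

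SESN2 footprints were at 48.3 CPM with vehicle, 101.0 with LPS and 88.6 with LPS+Dex in libraries 4. PPP1R15A footprints were at 268.0, 400.7 and 272.3 CPM there, and VLDLR footprints at 106.1, 52.5 and 91.1. CARS1 footprints were at 120.9 CPM with vehicle, 135.3 with LPS and 132.0 with LPS+Dex. With vehicle, library 4 was also the highest for IARS1 (364.5 CPM), SARS1 (324.0 CPM) and YARS1 (243.1 CPM). With LPS+Dex it was the highest for ASNS (42.55 CPM), GARS1 (395.0 CPM), MARS1 (292.2 CPM) and YARS1 (257.5 CPM). QARS1 with LPS, at 137.4 CPM, was the 1 case where library 4 was the lowest. The part of what sets libraries 4 apart in these values was not tested.

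In RNA the flags fell on several libraries. CHAC1 was at 7.34 CPM in vehicle library 4 and between 5.45 and 5.74 in the other 3. AARS1 was at 267.4 CPM in vehicle library 2, the lowest, and YARS1 at 239.1 CPM in vehicle library 1, the highest. TARS1 was lowest in LPS library 2 (252.5 CPM). With LPS+Dex, LARS1 was highest in library 2 (787.0 CPM) and VARS1 lowest in library 1 (711.6 CPM).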

How the results depend on the processing

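No call on a member turned its direction under any alternative run, and 29 to 30 members were called for LPS against vehicle in RNA when 1 library was left out. The ranges for the other counts when 1 library was left out were 9 to 13 (RNA, LPS+Dex against LPS), 24 to 28 (RNA, LPS+Dex against vehicle), 20 to 23, 5 to 8 and 18 to 21 (footprints, the 3 comparisons in the order LPS against vehicle, LPS+Dex against LPS, LPS+Dex against vehicle) and 0 to 1, 0 to 0 and 0 to 0 (footprints per mRNA). The 8 came without LPS+Dex library 4, where 2326 of 12298 genes were called, beside 2083 of 12197 in the main fit. For LPS+Dex against LPS, 16 members were called in RNA with only those 2 treatments fitted, and in footprints 13 with the replicate block and 12 without the 3 libraries numbered 4. Over all genes these 3 fits called 4900 of 12836, 3769 of 12197 and 3855 of 12233. The main fits called 4123 of 13327 in RNA and 2083 of 12197 in footprints. For footprints per mRNA, DESeq2 called 2 members with LPS, the replicate block 3 and leaving out libraries 4 also 3. Over all genes these fits called 404 of 11944, 897 of 11944 and 655 of 11978, beside 208 of 11944 in the main fit. For LPS+Dex against vehicle leaving out libraries 4 gave 1, with 1088 of 11978 genes called, beside 231 of 11944 in the main fit. The cause of these shifts was not tested. The block changed no other count by over 1.5 times. In RNA the block gave 29, 15 and 28 called members in the same order, beside 29, 10 and 27. Of all 13327 genes it called 8847, 4858 and 8592, beside 8291, 4123 and 8021. DDIT3, SESN2, ASNS, NARS1 and TARS1 passed with it for LPS+Dex against LPS. In RNA 7 of 12 same-number pairs had r over 0.1 (median 0.207), beside 13 of 36 with different numbers (median -0.0417). Whether the RNA numbers mark pairs is not settled either. Footprint counts of single libraries were as low as 42 for a member (PSPH), and how far counting error limits such members was not tested.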

Other observations

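Among the ATF4 targets outside the 34, XPOT and GPT2 were lower in footprints per mRNA with LPS. XPOT, the exporter that carries tRNA out of the nucleus, gave 0.15 ± 0.06 (log2 fold change ± SE, edgeR adjusted p = 0.0444) in RNA and -0.54 ± 0.09 (adjusted p = 0.00012) in footprints, and the change in footprints per mRNA was -0.65 ± 0.12 (adjusted p = 0.00224). GPT2, a mitochondrial alanine transaminase, gave -0.80 ± 0.12 (adjusted p = 4.09e-05) in RNA, -1.46 ± 0.12 (adjusted p = 1.02e-07) in footprints and -0.62 ± 0.16 (adjusted p = 0.0482) in footprints per mRNA. ATF3, a stress-induced repressor, rose with LPS 2.29-fold in RNA (adjusted p = 7.39e-08) and by 0.92 ± 0.20 (adjusted p = 0.00129) in footprints. Its LPS+Dex level was lower than vehicle in RNA (-0.66 ± 0.09, adjusted p = 3.75e-05) and in footprints (-0.86 ± 0.20, adjusted p = 0.00263). These 3 genes were chosen after their values were seen.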
